A study of Mus musculus with 12 samples.

Results

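The genes described here are the inhibitors of cyclin-dependent kinases (CDKs) other than Cdkn1a: Cdkn1b, Cdkn1c, Cdkn2a, Cdkn2b, Cdkn2c and Cdkn2d. They were chosen by name as members of the Cdkn family, not by their values, and all 6 were found among the 21853 protein-coding genes of the deposited expression table through the gene symbols of GENCODE release 21 for mouse (GRCm38). Cdkn1a, the p21 gene, is given beside them for reference only.

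CDKs drive the cell cycle once bound to a cyclin, and CDK inhibitors hold them back. The INK4 proteins, encoded by Cdkn2a (p16INK4a), Cdkn2b (p15INK4b), Cdkn2c (p18INK4c) and Cdkn2d (p19INK4d), bind CDK4 and CDK6 and keep them from D cyclins, so that the retinoblastoma protein stays active and E2F targets stay silent. The CIP/KIP proteins, encoded by Cdkn1a, Cdkn1b (p27KIP1) and Cdkn1c (p57KIP2), bind cyclin-CDK complexes, those of CDK2 among them. Cdkn2a also encodes, in another reading frame, p19ARF, which holds back MDM2 and so stabilises p53. Cdkn2a is the member most used as a mark of cellular senescence, and Cdkn2b, its neighbour, is a target of TGF-beta and is used in the same way. In blood formation, p57KIP2 is known for keeping stem cells quiescent, and p18INK4c for restraining their self-renewal.

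RNA was sequenced from whole bone marrow of B6 mice in 4 groups of 3 libraries. The control mice were not irradiated. TBI mice were given 5 Gy of gamma rays to the whole body at 0.66 Gy/min and then olive oil, the vehicle, by gavage in volumes of 100 µL, and TBI+DEIX mice the same irradiation and DEIX by mouth. DEIX stands for deinoxanthin, a carotenoid of Deinococcus bacteria, and was dosed daily at 25 mg/kg for 14 days. DEIX mice were given the compound without irradiation. All marrow was collected at day 14, with no vehicle stated for the control or DEIX mice and no age or sex for any group. The labels do not say that the 3 libraries of a group came from separate mice, so each p-value measures the spread between these libraries, which may be technical.

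Markers of the labelled tissue were present, with 11 of 12 erythroid, 8 of 8 promyelocyte and 9 of 9 usable maturing neutrophil markers at 1 FPKM or more in every library. Depth was estimated from the steps of low values at between 20800000 fragments (TBI+DEIX replicate 1) and 59900000 fragments (TBI replicate 2), and the steps were least clear in TBI+DEIX replicate 1. That library stood apart in several measures below, and the counts and calls that it moved most are given with and without it. The spread within a group, as an SD of log2(FPKM + 1) over tested genes, was 0.14 in control and 0.225 in TBI, with 0.418 after TBI+DEIX and 0.236 under DEIX alone, while the model used here assumes 1 spread for all groups. In whole marrow, fewer cells of a type and less RNA per cell cannot be told apart.

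Levels are given as FPKM, in which fragments are normalised to transcript length and sequencing depth, so that genes can be compared per length. Cdkn2d, Cdkn1b and Cdkn2c were expressed in every library, with means over the 12 libraries of 128, 67.6 and 38.5 FPKM. They ranked 594th, 1250th and 2315th by mean of the 21853 genes. The other members lay near or under the level of 1 FPKM. Cdkn1c had a mean of 0.551 FPKM and reached 1 FPKM in 1 library, while Cdkn2a (0.187 FPKM) and Cdkn2b (0.103 FPKM) reached it in none. Cdkn2d was the highest member in every library. Cdkn1b exceeded Cdkn2c in every library other than TBI+DEIX replicate 1, where the genes had 31.4 and 31.6 FPKM. Cdkn1c exceeded Cdkn2a in every library, and Cdkn2a and Cdkn2b changed places between libraries. For reference, Cdkn1a had a mean of 10.2 FPKM, between the expressed and the low members.

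Differences were tested with limma on log2(FPKM + 1) over the 10994 genes with at least 1 FPKM in at least 3 libraries, and calls were made at a p under 0.05 after Benjamini-Hochberg adjustment. Of the 6 members, Cdkn1b, Cdkn2c and Cdkn2d passed this filter, each in all 12 libraries. In TBI+DEIX against TBI, 1 member was called, Cdkn2d as higher, where 8.1% of all tested genes were called, 4.69% as higher. Against control, TBI+DEIX had 2 called members, Cdkn2d as higher and Cdkn2c as lower, where 30% of tested genes were called, 16.9% as higher and 13.1% as lower. In TBI against control (3.99% of tested genes called), DEIX against control (7.24%) and the interaction (0.2%, the effect of DEIX in irradiated minus that in unirradiated mice), 0 members were called by limma. At an unadjusted p under 0.05 these 3 comparisons held 0, 1 (Cdkn2d) and 0 members, where 18.1%, 24.7% and 7.5% of tested genes were under it. Comparisons with the same control or TBI libraries are not independent of each other. Without TBI+DEIX replicate 1, Cdkn1b, Cdkn2c and Cdkn2d were all called in TBI+DEIX against TBI, where 25.8% of tested genes were, and in TBI+DEIX against control, where 38.5% were.

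Cdkn2d (ENSMUSG00000096472.2, chromosome 9, 21288410 to 21291407, minus strand) encodes p19INK4d, an inhibitor of CDK4 and CDK6. Cdkn2d and Cdkn2c encode proteins of the same activity and moved in opposite directions in TBI+DEIX against control, so a window at the start of each gene is shown, for Cdkn2c the upstream of a pair of starts. The windows run from 250 bases before to 50 bases after a RefSeq start on GRCm38.p6, 5′ to 3′ on the gene's strand, with matches to the GC box GGGCGG on either strand in capitals. The first lies at chr9:21291160-21291459 and the second at chr4:109666707-109667006, both on the minus strand.
Cdkn2d: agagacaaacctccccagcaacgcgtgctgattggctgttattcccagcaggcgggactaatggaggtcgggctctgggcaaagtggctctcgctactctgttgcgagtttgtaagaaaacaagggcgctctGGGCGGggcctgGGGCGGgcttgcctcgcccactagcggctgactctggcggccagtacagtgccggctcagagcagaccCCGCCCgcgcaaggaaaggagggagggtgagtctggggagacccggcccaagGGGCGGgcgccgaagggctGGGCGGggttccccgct
Cdkn2c: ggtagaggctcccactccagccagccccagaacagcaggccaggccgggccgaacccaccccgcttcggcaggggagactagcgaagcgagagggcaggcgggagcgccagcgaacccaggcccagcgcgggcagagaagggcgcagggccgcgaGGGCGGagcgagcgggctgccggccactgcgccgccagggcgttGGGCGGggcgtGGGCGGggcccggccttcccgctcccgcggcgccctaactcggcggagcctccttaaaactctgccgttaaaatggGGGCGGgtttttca
The Cdkn2d window held 5 GC boxes and 1 CCAAT (searched on both strands) (66.3% G and C), and the Cdkn2c window shown held 4 GC boxes (73.3%). The window at the other Cdkn2c start, chr4:109665323-109665622, held 0 GC boxes and 1 CCAAT (44% G and C), and the table's single value for the gene does not separate the starts. Of 32851 promoter windows of the same length, 35.7% held at least 1 GC box, 10.7% held 3 or more, and 37.4% held a CCAAT. The TATA box TATAAA, held by 13.6% of all windows, was in none of the 3, and a match is only a match of letters.

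The Cdkn2d level was 86.7, 95.7 and 115 FPKM in the control libraries (mean 99.2 ± 14.6, SD, n = 3). In TBI it was 118, 98.4 and 96.7 FPKM (105 ± 12.1). TBI+DEIX libraries had 174, 156 and 172 FPKM (168 ± 10), and DEIX libraries 175, 123 and 122 FPKM (140 ± 30.5). The TBI+DEIX libraries lay above every TBI and control library, and the DEIX libraries above every control library. DEIX replicate 1 was as high as the TBI+DEIX libraries, while the other two DEIX libraries lay between them and control.

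**Figure D1:**
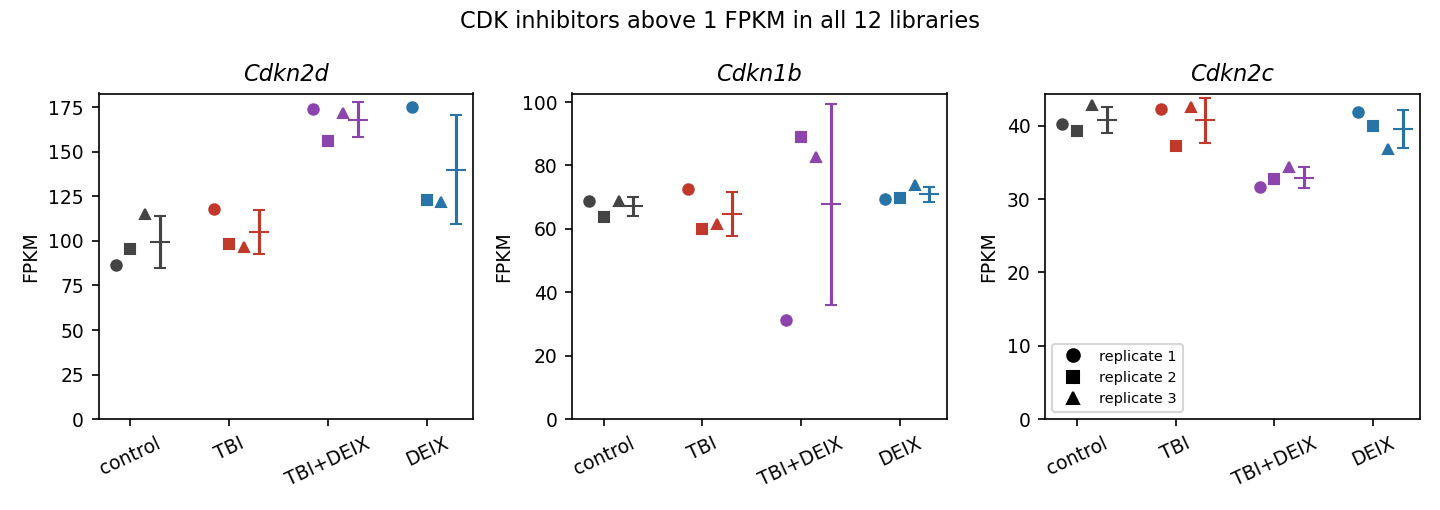
FPKM of Cdkn2d, Cdkn1b and Cdkn2c in the 3 libraries of each group. Symbols are replicates, and the bars beside them show the mean and SD. Cdkn2d lies at 156 FPKM or more in TBI+DEIX and at 118 or less in control and TBI, Cdkn2c is lowest in TBI+DEIX, and TBI+DEIX replicate 1 has 31.4 FPKM of Cdkn1b where every other library has at least 60.1.

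Against TBI, Cdkn2d rose in TBI+DEIX by 0.68 on the log2(FPKM + 1) scale (SE 0.16, 1.6-fold, limma adjusted p 0.0322). Against control the rise was 0.76 (SE 0.16, 1.69-fold, adjusted p 0.00544). Non-overlapping higher libraries were seen for 14.5% of tested genes in TBI+DEIX against TBI, for 23.9% in TBI+DEIX against control, and for 23.4% in DEIX against control. In DEIX against control the change was 0.48 (SE 0.16, 1.4-fold), with an unadjusted limma p of 0.0118 and an adjusted p of 0.0923, so it was not called. It was 0.31 without DEIX replicate 1 (adjusted p 0.298). TBI alone differed from control by 0.08, with a 95% interval from -0.27 to 0.43. The interaction was 0.20 (95% interval -0.30 to 0.70, limma adjusted p 0.991), so a difference between the DEIX effects in irradiated and unirradiated mice was not shown. Without DEIX replicate 1 it was 0.37 (adjusted p 0.839).

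The call of Cdkn2d in TBI+DEIX against TBI was not stable. It was lost with only those 6 libraries in the fit (adjusted p 0.144), on a TPM scale (change 0.55, adjusted p 0.184), on that scale without S100a8, S100a9 and Ngp (0.58, adjusted p 0.0743), with quantile normalisation (0.57, adjusted p 0.0576) and without TBI replicate 2, TBI replicate 3 or TBI+DEIX replicate 3 (adjusted p 0.0913, 0.139 and 0.0975). Without TBI+DEIX replicate 1 it was kept (0.65, adjusted p 0.0233). The call against control was kept in all 15 alternatives, by a narrow margin on the TPM scale (change 0.64, adjusted p 0.049961).

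Markers of several cell types differed between the same groups, and their part in the Cdkn2d difference was not tested. Between TBI+DEIX and TBI, 12 of 12 erythroid markers were lower, 3 of them called, and their summed level was 311 to 1890 FPKM in TBI+DEIX, 2120 to 9360 in TBI, 3790 to 5920 in control and 1550 to 9180 in DEIX. Of 12 maturing neutrophil markers 9 were higher and 0 called. Ngp and S100a9, counted as higher, and S100a8, counted as lower, had no usable values, and the usable markers that were lower were Ly6g and Camp. The sum of the 9 with usable values was 20800 to 52600 FPKM in TBI+DEIX and 25500 to 31700 in TBI. TBI+DEIX replicate 1 had the lowest neutrophil sum of all 12 libraries, beside a Cdkn2d level of 174 FPKM like that of the other TBI+DEIX libraries. All 14 proliferation genes were lower, 5 of them called, with sums of 1080 to 1270 FPKM in TBI+DEIX against 1480 to 1840 in TBI. Without TBI+DEIX replicate 1 the calls were 5 erythroid genes lower, 7 neutrophil genes higher and 12 proliferation genes lower.

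Against control, 9 of 12 B lineage markers were called as lower in TBI+DEIX, with a median change of -2.95, and 6 were without TBI+DEIX replicate 1. Their summed level was 564 to 683 FPKM in control, 41.5 to 513 in TBI, 9.22 to 254 in TBI+DEIX and 75.5 to 119 in DEIX. Over the 12 libraries the B lineage score, the mean centred log2 level of its markers, had an r of -0.745 with Cdkn2d, and the erythroid score one of -0.706. In the same comparison 7 of 12 erythroid, 6 of 7 dendritic and 7 of 9 megakaryocyte and platelet markers were called as lower, and 4 of 12 maturing neutrophil markers as higher. These counts became, without TBI+DEIX replicate 1, 2 erythroid, 6 dendritic and 7 megakaryocyte and platelet markers lower and 8 neutrophil markers higher.

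The genes whose log2(FPKM + 1) followed Cdkn2d most closely over the 12 libraries were Mvp (Pearson r 0.974), Rab24 (0.971), Pgs1 (0.971), Myd88 (0.971) and Rhov (0.969). They were 0.965 to 0.982 without TBI+DEIX replicate 1, and these values describe libraries that share groups and cell mixture. Mvp encodes the major vault protein and Myd88 an adaptor of Toll-like receptors. Cdkn2d and Cdkn2c were related over the same libraries with an r of -0.551, Cdkn2d and Cdkn1b with -0.0923, and Cdkn1b and Cdkn2c with 0.278.

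Cdkn2c (ENSMUSG00000028551.14, chromosome 4, 109660876 to 109667189, minus strand) encodes p18INK4c. Its level was 40.2, 39.3 and 42.8 FPKM in control (40.8 ± 1.79) and 42.3, 37.2 and 42.6 FPKM in TBI (40.7 ± 3.06). In TBI+DEIX it was 31.6, 32.7 and 34.4 FPKM (32.9 ± 1.43), and in DEIX 41.9, 40 and 36.8 FPKM (39.5 ± 2.58). The 3 TBI+DEIX libraries were the lowest of the 12 and did not overlap with any other group. The groups other than TBI+DEIX overlapped and differed by less than their spread. Non-overlapping lower libraries were seen for 12.7% of tested genes in TBI+DEIX against TBI and for 21.1% against control.

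Cdkn2c fell by 0.30 on the log2 scale in TBI+DEIX against control (SE 0.09, 0.812-fold, limma adjusted p 0.0269). Against TBI the change was -0.30 (SE 0.09, 0.813-fold), with an unadjusted limma p of 0.00649 and an adjusted p of 0.0628, so it was not called. The call against control was lost in 7 of 15 alternatives, among them the fit on those 6 libraries alone (adjusted p 0.0668), the TPM scale (change -0.43, adjusted p 0.116) and the fits without any 1 control library (adjusted p 0.0614 to 0.0909) or without TBI+DEIX replicate 2 (0.0582). Between TBI+DEIX and TBI the change passed the threshold with quantile normalisation (-0.36, adjusted p 0.0281) and without TBI+DEIX replicate 1 (-0.27, adjusted p 0.0498). The interaction was -0.25 (95% interval -0.53 to 0.02) and was not called. The erythroid and proliferation marker levels given for Cdkn2d moved with Cdkn2c as well, and their part was not tested.

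The genes most like Cdkn2c over the 12 libraries were Sord (r 0.908), Fam117a (0.908), St6galnac6 (0.9), Meaf6 (0.895) and Mis18a (0.895), with 0.844 to 0.88 when TBI+DEIX replicate 1 was left out. As a ratio of FPKM within a library, Cdkn2d exceeded Cdkn2c 2.16 to 2.70 times in control and 2.27 to 2.80 times in TBI. The ratio was 4.77 to 5.53 in TBI+DEIX and 3.07 to 4.18 in DEIX. The ranges of TBI+DEIX and DEIX thus lay above those of control and TBI and apart from each other. Of the summed FPKM of the 6 members, Cdkn2d took 44.2% to 50.6% in control libraries, 47.9% to 50.6% in TBI, 56% to 73% in TBI+DEIX and 52.4% to 61.1% in DEIX. A ratio within a library does not depend on a single scaling factor for that library, though quantile normalisation can change it. This description joins the values of Cdkn2d and Cdkn2c already given, and no share over other pairs of genes stands beside it.

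**Figure D2:**
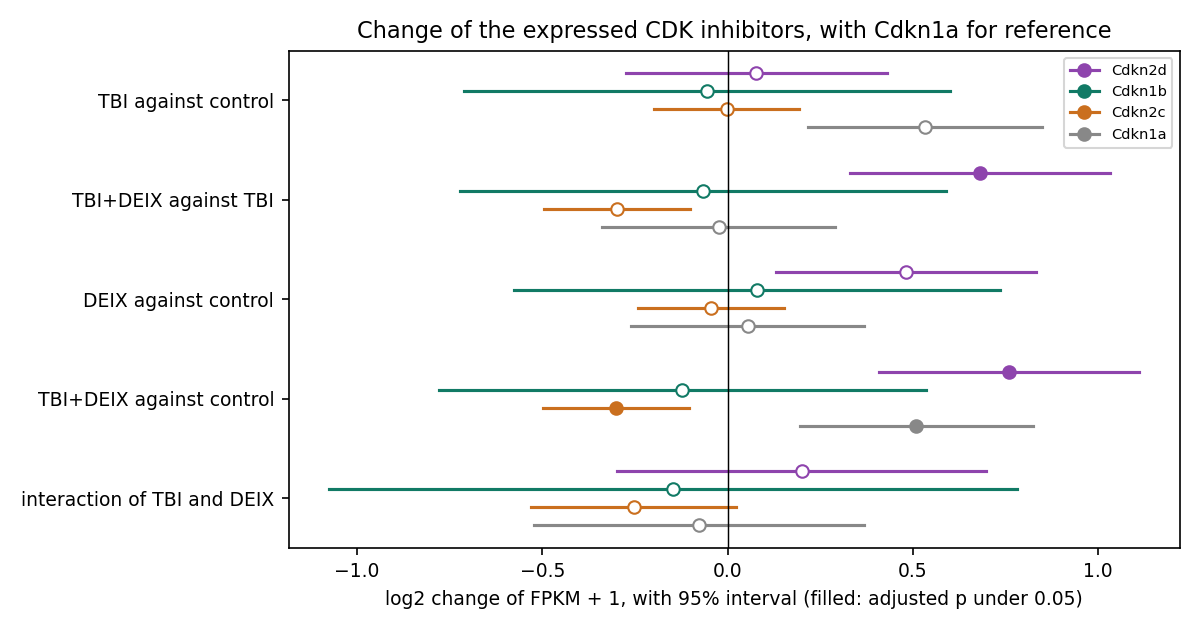
Change of Cdkn2d, Cdkn1b, Cdkn2c and, for reference, Cdkn1a on the log2(FPKM + 1) scale in the 5 comparisons, as points with 95% intervals from limma. Filled points had an adjusted p under 0.05. Cdkn2d lies above 0 and Cdkn2c below 0 in both comparisons of TBI+DEIX, while the intervals of Cdkn1b span 0 in all 5.

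Cdkn1b (ENSMUSG00000003031.14, chromosome 6, 134920401 to 134925513, plus strand) encodes p27KIP1, which is held at a high level in many resting cells and is controlled to a large extent by protein breakdown. Its level was 68.7, 63.7 and 68.8 FPKM in control (67.1 ± 2.88) and 72.6, 60.1 and 61.4 FPKM in TBI (64.7 ± 6.87). In DEIX it was 69.3, 69.7 and 73.8 FPKM (70.9 ± 2.46), just above every control library, as for 23.4% of tested genes. TBI+DEIX held both extremes, with 31.4 FPKM in replicate 1 and 88.9 and 82.8 FPKM in replicates 2 and 3 (67.7 ± 31.6).

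No comparison called Cdkn1b with limma, and the changes ran from -0.15 to 0.08 on the log2 scale. The sign depended on single libraries. With all 12, Cdkn1b differed by -0.07 against TBI (95% interval -0.72 to 0.59) and by -0.12 against control (-0.78 to 0.53). With TBI+DEIX replicate 1 left out, Cdkn1b rose by 0.41 against TBI (adjusted p 0.0155) and by 0.35 against control (adjusted p 0.0147), and the interaction was 0.33 (adjusted p 0.201). Against TBI the change was also above 0, at 0.0177, without TBI replicate 1 (adjusted p 0.981). Neutrophil markers split the TBI+DEIX libraries in the same way: the mean centred log2 score of the 9 usable markers was -0.64 in replicate 1 and 0.81 and 0.76 in replicates 2 and 3. Replicate 1 also had the fewest estimated fragments. Whether either accounts for its Cdkn1b level was not tested.

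Among the genes most like Cdkn1b over the 12 libraries were Pnrc1 (r 0.984), Cd300lb (0.977), Tmcc1 (0.976) and Sirpb1b (0.976). Their r with Cdkn1b was 0.876 to 0.928 when TBI+DEIX replicate 1 was left out. Skp2 and Cks1b, which mark p27 for breakdown, stood among the 13 tested genes of p27 turnover and transcription. Of the 13, 1 was called in TBI+DEIX against TBI, Skp2, lower by a change of -0.60 (SE 0.14, limma adjusted p 0.0328), from 13.7 ± 1.93 to 8.78 ± 1.98 FPKM. Against control, Fbxo4 rose by 0.49 in TBI+DEIX, a call lost in 10 of 15 alternatives, the fit without TBI+DEIX replicate 1 among them, while Cks1b (-0.80, adjusted p 0.00863), Stmn1 (-0.94) and Foxo1 (-1.54, adjusted p 0.00412) fell. Foxo1 encodes a transcription factor of the family that activates Cdkn1b. Its level was 8.29 ± 0.747 FPKM in control and 4.28 ± 2.25 in TBI, with 2.27 ± 0.878 after TBI+DEIX and 3.20 ± 0.524 under DEIX alone, and its fall in DEIX against control (-1.15, adjusted p 0.0476) was lost in 10 alternatives. The median of the list was -0.23 in TBI+DEIX against TBI and -0.39 against control, beside medians over all tested genes of 0.0032 and 0.0198. The list's medians were -0.15 and -0.12 without TBI+DEIX replicate 1, and Fbxo4 was called as higher against TBI.

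Cdkn2a (ENSMUSG00000044303.6, chromosome 4, 89274471 to 89294653, minus strand) has a pair of starts, and the table gives 1 value for the gene, so p16INK4a and p19ARF could not be separated. The annotated transcripts, of 852 and 895 bases, share 575 bases. The windows around both starts are shown because they are what the single value joins. The upstream window, at the first exon of the p19ARF transcript, lies at chr4:89294570-89294869 and the downstream window, at the first exon of the p16INK4a transcript, at chr4:89282143-89282442, both on the minus strand, with GC boxes in capitals as before.
Cdkn2a, upstream start: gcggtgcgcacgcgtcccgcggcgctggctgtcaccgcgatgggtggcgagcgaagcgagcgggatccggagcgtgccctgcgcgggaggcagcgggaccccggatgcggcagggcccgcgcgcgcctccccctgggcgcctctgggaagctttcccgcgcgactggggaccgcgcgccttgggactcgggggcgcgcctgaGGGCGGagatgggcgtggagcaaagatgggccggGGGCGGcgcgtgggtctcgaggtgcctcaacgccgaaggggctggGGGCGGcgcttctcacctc
Cdkn2a, downstream start: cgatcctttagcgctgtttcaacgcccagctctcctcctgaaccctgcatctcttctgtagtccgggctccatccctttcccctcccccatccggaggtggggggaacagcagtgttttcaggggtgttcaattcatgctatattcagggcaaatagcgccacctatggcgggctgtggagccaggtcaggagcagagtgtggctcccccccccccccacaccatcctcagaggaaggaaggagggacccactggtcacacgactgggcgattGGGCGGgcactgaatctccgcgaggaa
The upstream window held 3 GC boxes, 45 CpG pairs and 1 match to the E2F motif TTTCCCGC, which 1.07% of all promoter windows hold on either strand. The downstream window held 1 GC box, 12 CpG pairs and 1 CCAAT. The median window of the whole table held 7 CpG pairs, and 98.1% and 60.4% of windows had fewer than the Cdkn2a windows.

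The Cdkn2a level was 0.109, 0.179 and 0.103 FPKM in control and 0.0843, 0.387 and 0.272 FPKM in TBI. In TBI+DEIX it was 0.221, 0.370 and 0.197 FPKM, and in DEIX 0.126, 0.0602 and 0.137 FPKM. In FPKM every TBI+DEIX library lay above every control library, while TBI replicate 1 lay below every control library. By the estimated depth these values stood for 2.0 to 16.8 fragments per library and 67.4 fragments in all, with 1 fragment worth 0.0231 to 0.0665 FPKM. In fragments the groups overlapped, with 3.3, 9.1 and 4.2 in TBI+DEIX (16.6 in all) and 4.1, 4.8 and 4.5 in control (13.4). The estimated depth was 20800000 to 34000000 fragments in TBI+DEIX and 37300000 to 59800000 in control, and its part in the FPKM difference was not tested. Cdkn2a RNA was thus detected in each library, at a level 43.5% of the table's genes lay under.

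Cdkn2b (ENSMUSG00000073802.5, chromosome 4, 89306299 to 89311039, minus strand) lies 11645 bases from Cdkn2a. Its level was 0.0586, 0 and 0.109 FPKM in control and 0.0777, 0.0787 and 0.204 FPKM in TBI. In TBI+DEIX it was 0.291, 0.178 and 0.136 FPKM, and in DEIX 0.0703, 0.0326 and 0 FPKM. It was above 0 in 10 of 12 libraries, and the libraries listed at 0 were control replicate 2 and DEIX replicate 3. The values stood for an estimated 57.8 fragments in all and up to 11.2 in a library (12 at the upper estimate). In FPKM the TBI+DEIX libraries lay above every control library, as for Cdkn2a, which 7.19% of the 6310 genes under the filter but above 0 in at least 1 library also did. In estimated fragments the groups overlapped, with 7.5, 7.5 and 4.9 in TBI+DEIX (19.9 in all) and 3.7, 0 and 8.1 in control (11.8). The longest identical run between the transcripts of Cdkn2a and Cdkn2b was 23 bases, the longest of the 15 pairs of members, where the others had 10 to 16.

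**Figure D3:**
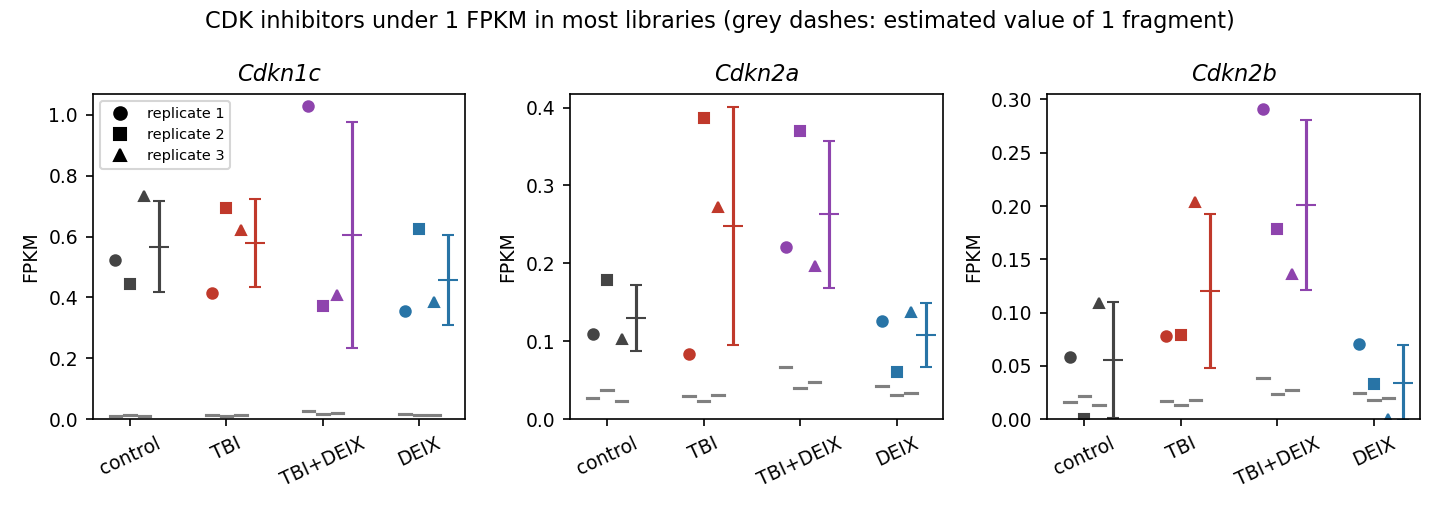
FPKM of Cdkn1c, Cdkn2a and Cdkn2b in the 3 libraries of each group, with mean and SD (bars are not drawn below 0). Grey dashes mark the estimated worth of 1 fragment in that library. Cdkn2a and Cdkn2b stand for up to about 16.8 and 11.2 estimated fragments in a library. For both genes the 3 TBI+DEIX libraries lie above the 3 control libraries in FPKM but not in estimated fragments. Only TBI+DEIX replicate 1 reaches 1 FPKM of Cdkn1c.

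For these low members an exact two-sided permutation test of 3 against 3 libraries cannot give a p under 0.1. Cdkn2a (difference 0.132 FPKM) and Cdkn2b (0.146 FPKM) reached an exact permutation p of 0.1 in TBI+DEIX against control (adjusted p 0.6 over 12 tests), and the other 10 tests gave 0.3 or more. With no filter on low values, limma gave Cdkn2b a change of 0.19 in TBI+DEIX against control with an adjusted p of 0.0541.

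After these values had been seen, the 6 irradiated libraries, with and without DEIX, were compared with the 6 unirradiated ones. Cdkn2a had a mean of 0.255 ± 0.114 FPKM with irradiation and 0.119 ± 0.0394 without (SD, n = 6), and 5 of 6 irradiated libraries lay above the highest unirradiated value of 0.179 FPKM. The exact two-sided permutation p was 0.0238 (adjusted p 0.0357 over 3 genes). Without DEIX replicate 2 it was 0.0541, a test of the same kind with a difference of 0.124 FPKM. Cdkn2b had 0.161 ± 0.0816 FPKM with irradiation and 0.0451 ± 0.0427 without, 4 of 6 irradiated libraries lay above the highest unirradiated value of 0.109 FPKM, and the exact permutation p was 0.0108 (adjusted p 0.0325). For Cdkn2b the p stayed under 0.05 without each library in turn and on the TPM scale. Because the comparison was chosen with the values in view, these p-values describe the libraries and do not stand as an independent test. The p-values without single libraries and on the TPM scale reuse the same values. The permutations did not keep libraries with and without DEIX apart, and no share over other low genes stands beside them.

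Markers of some cell types were split by irradiation as well, and their part in the levels of Cdkn2a and Cdkn2b was not tested. Dendritic markers summed to 106 to 115 FPKM in TBI and 39 to 90.7 in TBI+DEIX, against 235 to 260 in control and 142 to 168 in DEIX. Megakaryocyte and platelet markers summed to 44.8 to 64.3 FPKM in TBI and 29.5 to 57.3 in TBI+DEIX, against 125 to 187 in control and 75.2 to 125 in DEIX. The summed stem and progenitor markers were lower in every irradiated library other than TBI+DEIX replicate 1, at 44.4 to 50.6 FPKM in TBI and 48.8 to 247 in TBI+DEIX, against 101 to 105 in control and 80.7 to 101 in DEIX. The stroma, bone and endothelium markers overlapped between irradiated and unirradiated libraries and summed to 24.3 to 47.6 FPKM in TBI and 21.3 to 30.0 in TBI+DEIX, against 30.8 to 37.5 in control and 13.4 to 22.9 in DEIX. For comparison, Cdkn1a was 7.25, 7.85 and 9.38 FPKM in control and 11.1, 12.3 and 13.2 in TBI, with 9.58, 13.3 and 13.4 after TBI+DEIX and 9.56, 8.11 and 7.81 under DEIX alone. Both irradiated groups of Cdkn1a lay above control without overlap (22% of tested genes did so upward in TBI against control). Its change was called in TBI+DEIX against control (0.51, limma adjusted p 0.0211, lost in 6 of 15 alternatives) and not in TBI against control (0.53, adjusted p 0.0685).

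Cdkn1c (ENSMUSG00000037664.13, chromosome 7, 143458339 to 143461050, minus strand) encodes p57KIP2 and is an imprinted gene expressed from the maternal copy. Its level was 0.524, 0.443 and 0.734 FPKM in control and 0.416, 0.695 and 0.623 FPKM in TBI. In TBI+DEIX it was 1.03, 0.372 and 0.409 FPKM, and in DEIX 0.356, 0.626 and 0.385 FPKM. All groups overlapped, and no exact permutation test of 3 against 3 gave a p under 0.5. Irradiated and unirradiated libraries differed by 0.0801 FPKM (exact permutation p 0.558), and by -0.00823 FPKM without TBI+DEIX replicate 1, the highest library. That library also had the highest stem and progenitor sum, 247 FPKM, but its mean centred log2 score of the same list was -0.22, below every control and DEIX library, so the sum and the score ran in opposite directions there. Their part in the Cdkn1c level was not tested. Of 14 imprinted genes listed with and near Cdkn1c, 11 were in the table, 5 passed the filter and 0 were called by limma in any comparison, though Cd81 was called as higher against control without TBI+DEIX replicate 1.

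The partners of the INK4 proteins are the CDKs and cyclins. All 12 listed genes were tested, led by Ccnd3, the main D cyclin here at 440 ± 67.7 FPKM in control and 527 ± 184 in TBI+DEIX, which was not called. Against TBI, 0 were called as higher in TBI+DEIX and 3 as lower: Cdk4, Ccne1 and Ccne2. Cdk4, the kinase that p18INK4c and p19INK4d bind, was 85.6 ± 1.86 FPKM in control and 86.8 ± 13.3 in TBI, with 53.9 ± 9.68 after TBI+DEIX and 67.4 ± 9.43 under DEIX alone. It fell by 0.68 against TBI (SE 0.15, limma adjusted p 0.0276) and by 0.67 against control (SE 0.15, adjusted p 0.00796). The call against control held in all 15 alternatives, and that against TBI in 10. Ccne1 and Ccne2, the E cyclins that act with CDK2, changed by -0.82 (adjusted p 0.0468, lost in 9 of 15 alternatives) and -0.83 (adjusted p 0.0174, lost in 3) against TBI. Cdk6, the gene of the other kinase that the INK4 proteins bind, had changes of -0.11 against TBI and -0.32 against control, neither of them called. Without TBI+DEIX replicate 1, Cdk6 was called as lower in both comparisons, as Cdk4 was, and Ccnd3 and Cdk2 were called as higher against control.

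**Figure D4:**
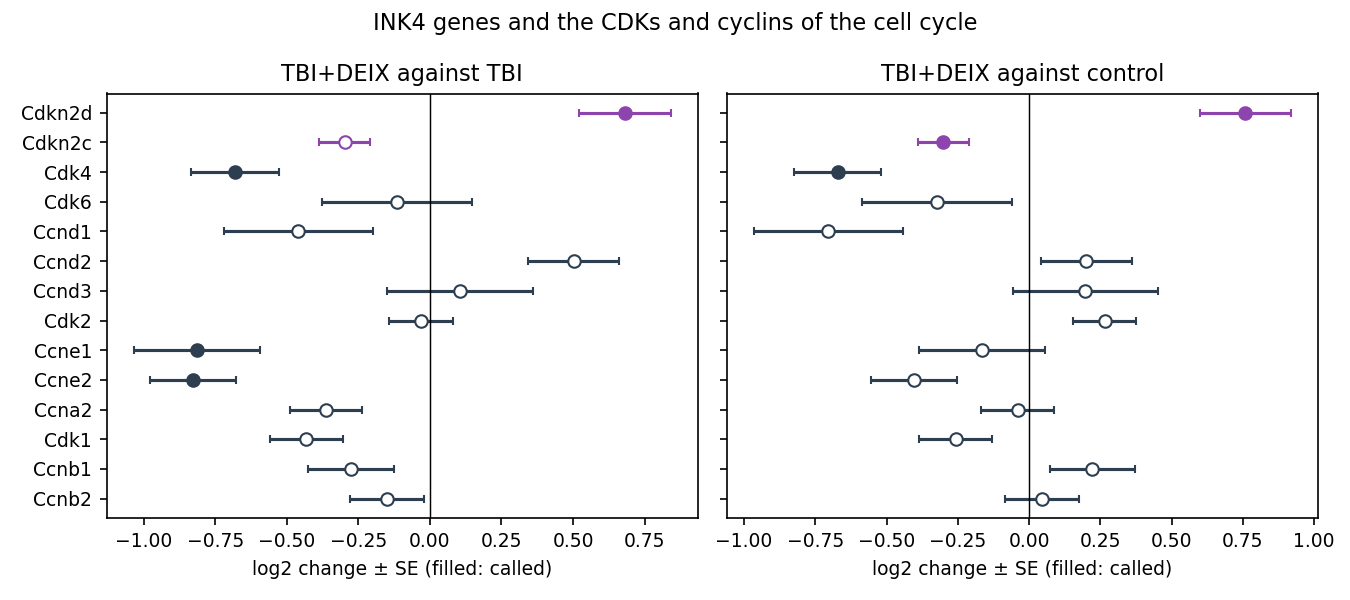
Change of Cdkn2d and Cdkn2c beside that of the 12 CDKs and cyclins on the log2(FPKM + 1) scale, as points with SE. Filled points had an adjusted p under 0.05. Cdkn2d lies to the right and Cdk4 to the left in both comparisons, while Ccne1 and Ccne2 were called as lower in TBI+DEIX against TBI only.

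The median change of the 12 CDKs and cyclins was -0.32 in TBI+DEIX against TBI, 0.19 in TBI against control, -0.16 in DEIX against control and -0.10 in TBI+DEIX against control. Over all tested genes the medians were 0.0032, 0.0451, 0.0162 and 0.0198. In DEIX against control Ccnd2 was called as lower (-0.59, adjusted p 0.0499), a call lost in 11 alternatives. Downstream, 13 of 13 RB and E2F genes had changes above 0 in TBI against control with a median of 0.26, as did 14 of 14 proliferation genes (median 0.23, 0 called by limma) and 6350 of all 10994 tested genes. Of the 13, 1 was called, Tfdp1, the partner of E2F proteins (0.42, adjusted p 0.0226, lost in 10 alternatives). Their median in TBI+DEIX against TBI was -0.34 and E2f6 was called there as lower (-0.56, adjusted p 0.0335, lost in 8 of 15 alternatives). Against control, Tfdp1 was called as higher in TBI+DEIX (0.51, adjusted p 0.00191, lost in 3 of 15 alternatives), and Tfdp2 (-1.38, adjusted p 0.0372) and E2f6 (-0.46, adjusted p 0.0253) as lower, each lost in 6. Without TBI+DEIX replicate 1, TBI+DEIX against TBI had 1 higher and 6 lower called genes among the CDKs and cyclins. The RB and E2F genes had 7 called as lower there, beside 12 of 14 proliferation genes called as lower. Against control the same fit called 2 CDKs and cyclins as higher and 2 as lower. It called 1 of the RB and E2F genes as higher and 3 as lower, beside 5 of 14 proliferation genes as lower.

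Polycomb proteins keep the Cdkn2a locus silent, and 14 of 16 such repressors were tested. Ezh2, the methyltransferase of Polycomb complex PRC2, was 49.6 ± 1.89 FPKM in control and 46.4 ± 8.88 in TBI, with 28.1 ± 5.73 after TBI+DEIX and 34.8 ± 0.735 under DEIX alone. It fell by 0.70 in TBI+DEIX against TBI (SE 0.15, limma adjusted p 0.023) and by 0.82 against control (SE 0.15, adjusted p 0.00275). Cbx7, a reader of the Polycomb mark, was 6.05 ± 1.05 FPKM in control and 2.16 ± 0.24 in TBI, with 2.72 ± 1.00 after TBI+DEIX and 3.89 ± 1.22 under DEIX alone. Cbx7 fell in TBI against control (-1.15, adjusted p 0.0143, lost in 3 of 14 alternatives) and in TBI+DEIX against control (-0.95, adjusted p 0.00785). The fall of Ezh2 and Cbx7 against control after TBI+DEIX was kept in every alternative run. Rnf2 and Phc1 were also called as lower there, calls lost in 6 and 8 alternatives, while Bmi1, Suz12 and Eed were not called in any of the 4 comparisons of groups. With TBI+DEIX replicate 1 left out, Ezh2, Kdm2b and Suz12 were called as lower in TBI+DEIX against TBI, and Kdm2b was also called as lower against control.

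Among 11 activators of the locus and genes of the ARF, MDM2 and p53 axis, Mdm2, Ets2 and Kdm6b rose in TBI+DEIX against TBI (0.42, 0.55 and 0.55, calls lost in 6, 5 and 8 of 15 alternatives), and Mdm4 as well against control, a call lost in 7 alternatives, the fit without TBI+DEIX replicate 1 among them. These are 3 and 4 called genes, where 8.1% and 30% of all tested genes were called. Against TBI 6 of the 11 had changes above 0 and 5 below. Trp53, the p53 gene, changed by -0.65 against TBI (limma adjusted p 0.0871) and -0.62 against control (0.0538), neither called. Mdm2, the ubiquitin ligase that p19ARF restrains and a p53 target, was 28.3 ± 0.238 FPKM in control and 32.4 ± 1.65 in TBI, with 43.5 ± 0.411 after TBI+DEIX and 32.2 ± 2.10 under DEIX alone. Its rise against control was 0.60 (SE 0.08, limma adjusted p 0.000512). Kdm6b, a demethylase of the Polycomb mark, rose by 0.77 against control (SE 0.13, adjusted p 0.00151). The TGF-beta genes upstream of Cdkn2b and Cdkn1c had 9 tested genes and 2 calls, Tgfbr1 (0.40) and Smad2 (0.37) as higher in TBI+DEIX against control. These calls were lost in 8 and 7 of 15 alternatives, and without TBI+DEIX replicate 1 only Smad2 was called. The calls in TBI+DEIX against TBI of Cdk4, Ccne1, Ccne2, E2f6, Skp2, Ezh2, Mdm2, Ets2 and Kdm6b were each lost with only those 6 libraries in the fit and without TBI replicate 3.

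Of 19 senescence and secretory genes 10 passed the filter, and Cxcl1 and Mmp3 were listed at 0 in all 12 libraries. In TBI against control 0 of the 10 were called by limma, with a median change of 0.0895, and in TBI+DEIX against TBI 0 were called, with a median of 0.0276. Tnf, which encodes an inflammatory cytokine, was called as higher in TBI+DEIX against control (0.84, adjusted p 0.00325), from 8.25 ± 0.427 to 15.5 ± 0.666 FPKM. Lmnb1, the lamin B1 gene whose loss is used as a senescence mark, was 125 ± 2.76 FPKM in control and 131 ± 4.63 in TBI, with 123 ± 8.33 after TBI+DEIX and 132 ± 11.3 under DEIX alone and was not called. Glb1, which encodes the enzyme behind senescence-associated beta-galactosidase staining, ranged from 10.1 ± 1.46 to 12 ± 2.09 FPKM between groups and was not called. Without TBI+DEIX replicate 1, Cd9, Il1b and Plaur were called as higher and Hmgb1 as lower in TBI+DEIX against TBI, with a median of 0.137.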

How the data were processed

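The authors deposited 1 table of FPKM per gene and library, with STAR 2.6, Cufflinks 2.2.1 and mm10 named, without roles, in the submitters' processing notes. The annotation, and whether strand was used in assigning fragments, are not given in the sources used here. The kit was directional, per the labels' protocols. The neutrophil genes S100a8, S100a9 and Ngp are listed at 0 in some libraries and very high in others, and were left out of marker sums. All 21853 identifiers matched GENCODE release 21 for mouse.

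From the table, log2(FPKM + 1) was modelled as 4 group means in R 4.3.3 by limma 3.58.1 (lmFit and a trended eBayes) over 12 libraries with 8 residual degrees of freedom, for the 10994 genes with at least 1 FPKM in at least 3 libraries. The scale understates changes of low genes. Fits were tested on simulated data in which a gene had the same spread in all groups and only the TBI group held changes. The unequal spread of these groups was therefore not tested. A fold is 2 to the power of the log2 change. Fragments per library were estimated from the steps of low single-transcript genes of at least 1000 bases; between 23.6% (TBI+DEIX replicate 1) and 36% of low values lay within 0.1 of a whole fragment, where chance gives 20%. Estimated fragments carry this error beside counting error.

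The 6 members and the gene lists were chosen with earlier results of these data known. Named in full are the members; from the lists, called genes, the genes of highest mean FPKM and genes that a result turns on; and the 5 genes most like each tested member, except that 2 genes of the rule are not reported here. The 21 alternatives were another pseudocount (0.1), no filter, a mean of at least 5 FPKM, only the compared groups, a TPM scale, quantile normalisation, a replicate block, a TPM scale without those 3 genes, array weights, and each library left out in turn. The comparison by irradiation, the alternatives for list genes and the list counts without TBI+DEIX replicate 1 were added after the values were seen.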

Additional observations from a re-analysis of the deposited data

How the results depend on the processing

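Of the counts of called members, those of TBI against control and of the interaction were 0 in every alternative. In TBI+DEIX against TBI the count of 1 became 0 with only the compared groups, on the TPM scale and on the TPM scale without S100a8, S100a9 and Ngp, and 2 with array weights, and ranged from 0 to 3 without single libraries. After quantile normalisation it was 1, with Cdkn2c (adjusted p 0.0281) in place of Cdkn2d. In DEIX against control it became 1 with array weights. In TBI+DEIX against control the count of 2 became 1 with only the compared groups and on both TPM scales, where Cdkn2d was kept, and 3 with array weights, and ranged from 1 to 3 without single libraries. The cause was not tested. Over all genes, the 891 calls of TBI+DEIX against TBI became 0 with only those 6 libraries, 157 on the TPM scale and 4488 with array weights, and the 439 of TBI against control became 1417, 253 and 4218. On the TPM scale 34.4% of calls in TBI+DEIX against TBI were higher, against 57.9% on FPKM, and 30.6% against 56.2% in TBI+DEIX against control; that scale shifted the median gene to -0.1178 in TBI+DEIX against TBI and to -0.1227 in DEIX against control. Relative to the median gene, Cdkn2d in TBI+DEIX against TBI stood at 0.68 on FPKM, 0.67 on TPM and 0.55 after quantile normalisation.

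Some changes that were not called turned direction. For Cdkn1b in DEIX against control these were -0.0704 (TPM) and -0.0382 (quantile), and with array weights 0.4482 in TBI+DEIX against TBI (called, adjusted p 0.00867), 0.3759 against control (called, adjusted p 0.00636) and 0.3057 in the interaction. Without single libraries Cdkn1b ranged from -0.3289 to 0.407, from -0.3841 to 0.3518 and from -0.4087 to 0.3272 in those comparisons. Cdkn2c in TBI against control was 0.0036 (TPM) and 0.0169 (TPM without the 3 genes). Without single libraries it ranged from -0.0365 to 0.0597, and in DEIX against control from -0.0858 to 0.0057. Cdkn2d in TBI against control ranged from -0.0146 to 0.1904, and Cdkn1c by irradiation from -0.00823 to 0.125 FPKM.

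Replicate numbers did not pair the libraries: deviations of same-numbered libraries correlated with a median r of -0.0656 over 18 pairs, 3 of them over 0.1, and 1 of 12 libraries correlated best with its own number. With the replicate block the called members numbered 0, 1, 0, 2 and 0 in the 5 comparisons, as without it, while calls over all genes in TBI+DEIX against TBI fell from 891 to 474. Cdkn2a and Cdkn2b rest on few fragments: the highest estimates in a library were 16.8 and 11.2, and 19.6 and 12 at the upper end of the estimated depth.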
